A study of Mus musculus with 16 samples.

Results

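The collagen genes were taken as every gene whose listed name consists of Col, a number, the letter a and a second number. This rule found 44 of the 54146 genes in the tables. Of these, the 6 chains of types I, III and V (Col1a1, Col1a2, Col3a1, Col5a1, Col5a2 and Col5a3) were grouped as fibrillar. Another 8 (Col4a1 to Col4a6, Col15a1 and Col18a1) were grouped as basement membrane, and 30 stood outside both groups. Other fibril-forming chains, Col2a1, Col11a1, Col11a2, Col24a1 and Col27a1, were left among the 30. RNA-seq of whole pancreatic islets was available for the 8 inbred strains that founded the Diversity Outbred mice: 129 (129S1_SvImJ), AJ (A_J), B6 (C57BL/6J), CAST (CAST_EiJ), NOD (NOD_ShiLtJ), NZO (NZO_HlLtJ), PWK (PWK_PhJ) and WSB (WSB_EiJ). All mice were 26 weeks old and all were fed a high-fat diet, so no lean control exists. The 91 libraries fall into 16 samples of 1 strain and 1 sex, with 10 libraries of 129, 14 of AJ, 18 of B6, 14 of CAST, 10 of NOD, 4 of NZO (3 labelled female and 1 male), 5 of PWK (1 female and 4 male) and 16 of WSB. The labels speak of several waves of animals without giving the wave or the mouse of a library, so p-values measure the spread between libraries, which may in part be technical.

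Collagens are built from 3 chains wound into a triple helix. Fibrillar collagens such as types I, III and V assemble into the cable-like fibres of connective tissue and are made mainly by fibroblasts and related mesenchymal cells. Type IV collagen forms the sheet-like network of basement membranes, on which endothelial and epithelial cells rest, and types XV and XVIII sit in or next to that layer. In mouse islets, the basement membrane around the capillaries is laid down largely by endothelial cells, whereas fibrillar collagen is found mostly around the islet and along its vessels.

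Total expected counts were 16928552 to 35196145 per library. Markers of beta cells were high in every strain, with summed levels of 165781 TPM or more in each library (TPM is a level corrected for transcript length and depth). Islets carry other pancreatic cells along, and the 10 acinar markers summed to between 1951 and 360814 TPM. In 12 libraries (6 of 129, 2 of NOD and 4 of WSB) Xist and the Y-linked genes went against the labelled sex, and these are called sex-discordant below. The single male NZO library, replicate 4, was intermediate, with 47.99 CPM (counts scaled to library size) of Xist and 129 CPM of Y-linked genes, whereas the female NZO libraries had 426 to 768 CPM of Xist. Library numbers 66 to 100 belong to 129, NOD, NZO and PWK and numbers 1 to 65 to the other 4 strains, so a batch that follows the numbers cannot be told apart from strain between these sets. For this reason each strain was also compared with the other 3 strains of its own number range. Within 66 to 100 the numbers also follow strain, with PWK at 66 to 75, 129 at 76 to 85, NZO at 86 to 90 and NOD at 91 to 100. For these 4 strains the comparison within the range cannot tell such a batch apart from strain either.

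A pair of sequences at gene starts is shown, from the most abundant basement membrane chains and the most abundant fibrillar chain. RefSeq promoter windows on GRCm38.p6 were found for 35 of the 44 genes. Col4a1 and Col4a2, the 2 main chains of type IV collagen, lie head to head on chromosome 8, and their annotated starts overlap by 22 bases at chr8:11312805-11312826, printed on the plus strand. For Col3a1 the 250 bases before the start are printed on the plus strand, at chr1:45311288-45311537. Capitals mark the letters TATAAA, which begin 117 bases before that start. On either strand, TATAAA stood in the 250 upstream bases of 12.4% of all 32851 windows and in those of 5 of the 35 collagen genes. A match is a description of the letters and not of a used site.
Col4a1 and Col4a2: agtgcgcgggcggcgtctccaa
Col3a1: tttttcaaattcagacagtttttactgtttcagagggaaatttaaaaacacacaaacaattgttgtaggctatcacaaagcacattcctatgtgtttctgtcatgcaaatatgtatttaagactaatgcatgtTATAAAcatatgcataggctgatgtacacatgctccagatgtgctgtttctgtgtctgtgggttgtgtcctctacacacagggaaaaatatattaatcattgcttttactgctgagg

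The most abundant collagen transcripts in these islets were the type IV chains. Col4a1 averaged 73.3 TPM ± 21.6 over all libraries (SD, n = 91), with extremes of 31.2 and 127 TPM, and Col4a2 averaged 26.3 ± 10.8. They were followed by the fibrillar chain Col3a1 at 18.2 TPM ± 17.6, by Col27a1 at 13.6 TPM ± 12.9, by Col15a1 at 13.2 TPM ± 7.60 and by Col1a2 at 9.45 TPM ± 12.1. Col13a1, a transmembrane collagen, had 6.48 TPM ± 2.12 and Col1a1 had 6.33 TPM ± 8.30. Col6a6, Col6a1 and Col6a2, chains of the microfibril-forming type VI collagen, had 5.71, 5.35 and 5.16 TPM. These 11 genes were the ones at a mean of at least 5 TPM, and 24 of the 44 reached 1 TPM, as did 58.2% of all protein-coding genes. At the low end, 8 genes had a mean under 0.1 TPM, and Col9a1 had counts in 23 of the 91 libraries.

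Of the 44 genes, 37 passed the filter on low and invariable counts and were tested with edgeR. The 7 that did not pass were Col2a1, Col6a4, Col9a1, Col10a1, Col17a1, Col22a1 and Col24a1. A strain effect was called for 37 of the 37 at an adjusted p under 0.05, which reads little by itself, since 97.4% of all 15191 genes tested were called. The sizes differed more from the background. The fitted difference between the highest and the lowest strain had a median of 2.76 on the log2 scale over the collagen genes and of 0.87 over all genes tested. Strain accounted for a median of 69.2% of the variance of log2(normalized count + 1) of the collagen genes, from 23.4% for Col11a1 to 97.6% for Col6a6, and for 50.9% over all genes tested.

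When each strain was compared with the mean of the other 7, the collagen genes leaned down in 129, B6 and CAST and up in NOD, NZO and WSB. In 129, 5 of 37 were higher and 23 lower (background 27.8% higher and 21% lower), and in B6, 4 were higher and 26 lower (25.6% and 27.5%). In CAST, 4 were higher and 20 lower (26.7% and 31%). In NOD, 22 were higher and 7 lower (35.8% and 29.5%), in NZO 24 and 2 (20% and 14.2%) and in WSB 16 and 5 (26.5% and 29.7%). AJ had 9 higher and 10 lower (24.9% and 32.1%) and PWK 10 and 5 (23.1% and 21.9%). The NZO counts include replicate 4, on which some of the NZO calls below rest. Against the other 3 strains of the same number range, the genes called were 32 in 129 (53.2% of all genes), 23 in AJ (50.4%), 29 in B6 (49.1%), 21 in CAST (55.2%), 27 in NOD (60.3%), 26 in NZO (35.1%), 18 in PWK (46.8%) and 25 in WSB (52.6%). In AJ the split turned upward in that comparison, to 16 higher and 7 lower (24.6% and 25.8% of all genes). In CAST it was 8 higher and 13 lower (28.5% and 26.8%), in PWK 9 and 9 (21.2% and 25.6%) and in WSB 23 and 2 (27.8% and 24.8%), so the shares called in CAST and PWK were near those of all genes. With counts summed per sample, so that a strain had 2 values, the called genes fell from 19 to 11 in AJ (30.5% of all genes), from 24 to 13 in CAST (35.7%) and from 21 to 9 in WSB (30.3%).

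**Figure D1:**
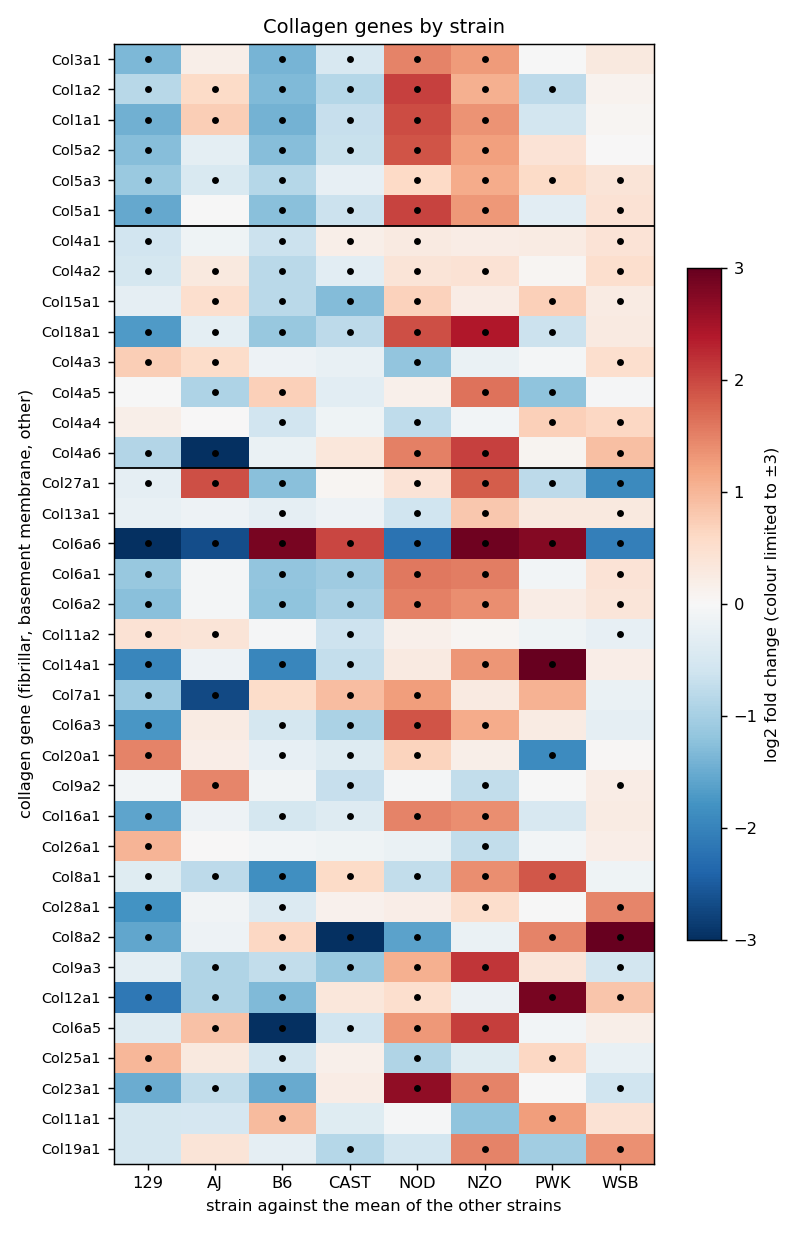
Log2 fold change of each of the 37 tested collagen genes (rows) in each strain against the mean of the other strains (columns), with black dots where the adjusted p was under 0.05 and lines between the fibrillar, basement membrane and other genes. The 6 fibrillar rows are blue in 129 and B6 and red in NOD and NZO, and Col6a6 alternates between strong blue and strong red.

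The summed level of the fibrillar chains, of which Col1a1, Col1a2 and Col3a1 made up 89.3%, was lowest in B6 at 14.1 TPM ± 6.72 (SD, n = 18), 129 at 18.4 ± 4.26 (n = 10) and CAST at 20.5 ± 9.04 (n = 14). It was 32.5 ± 11.4 in PWK (n = 5), 34.5 ± 12.9 in WSB (n = 16) and 45.4 ± 19.6 in AJ (n = 14). The highest means were those of NZO, 71.2 ± 47.9 (n = 4), and NOD, 107 ± 83.9 (n = 10). The NOD libraries ran from 19.8 over a median of 94.8 to 240.0 TPM and overlapped every other strain, whereas B6 ran from 5.73 over 11.6 to 29.9 TPM. The NZO libraries had 47.2, 37.8, 57.7 and 142 TPM, all above every library of B6 and 129. Neighbours in this order overlapped: B6, 129 and CAST had libraries at the same levels, and so did PWK, WSB and AJ.

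**Figure D2:**
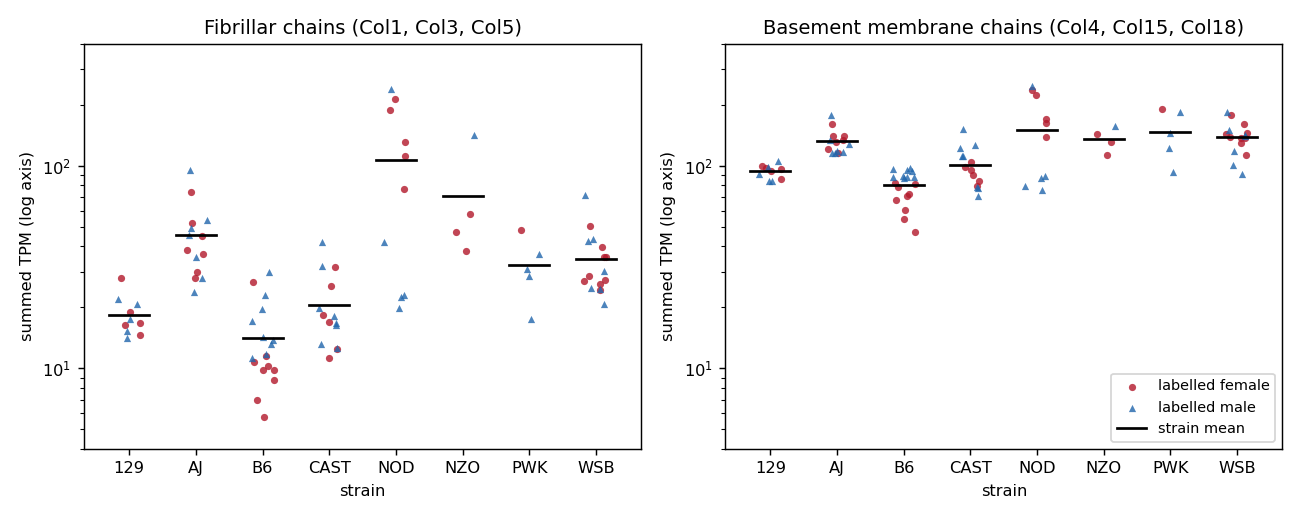
Summed TPM of the 6 fibrillar chains (left) and the 8 basement membrane chains (right) in each of the 91 libraries by strain, on a log axis, with strain means as black bars and the labelled sex as colour and symbol. The fibrillar sums run from 5.73 to 240.0 TPM and the basement membrane sums from 47.2 to 248 TPM, and the NOD fibrillar sums run from 19.8 to 240.0 TPM.

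The order of the remaining strains differed between single chains, while all 6 were higher in NOD and NZO and lower in 129 and B6. Col1a1, the major chain of type I collagen, ran in B6 from 1.01 over a median of 1.64 to 6.79 TPM and in NOD from 3.00 over 18.3 to 51.7 TPM, and the groups overlapped. Against the remaining strains its level in NOD was 1.96 higher on the log2 scale, and it was lower in 129 and B6 by a log2 fold change of -1.44 and -1.42. Its partner Col1a2 was higher in NOD by 2.06 ± 0.17 (SE, adjusted p = 7.36e-19), and Col3a1, the type III chain of elastic tissues, by 1.48. Col5a1 and Col5a2, chains of the type V collagen that starts fibrils, were higher in NOD by 2.03 and 1.88. Col5a3 was higher in NOD by 0.59 and had its highest mean TPM in NZO, with 2.19 TPM, against 1.80 in PWK and 1.76 in NOD. In CAST 5 of 6 chains were called lower (31% of all genes). The counts in AJ, 2 higher and 1 lower (24.9% and 32.1%), in PWK, 1 higher and 1 lower (23.1% and 21.9%), and in WSB, 2 higher (26.5%), were near the shares of all genes. Within its own number range CAST kept 1 of these calls (26.8% of all genes lower) and NOD 5 (32.6% higher). B6, 129 and NZO kept 6 each (22.9% lower, 26% lower and 18.6% higher). AJ then had 3 higher and 0 lower (24.6% and 25.8%), PWK 0 higher and 2 lower (21.2% and 25.6%), and WSB 5 higher (27.8%).

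In NZO, the calls of 5 of the 6 fibrillar chains rested on 1 library. Col1a1 had 4.95, 4.39, 8.63 and 29.1 TPM in the 4 NZO libraries and Col1a2 had 8.70, 7.35, 10.7 and 31.6 TPM, with the male library, replicate 4, highest in both. With all 4 libraries Col1a1 was higher in NZO by 1.36 (adjusted p = 0.00053). Without replicate 4 the difference was 0.36 (adjusted p = 0.586), that of Col1a2 fell from 1.06 to 0.29 (adjusted p = 0.584) and that of Col3a1 from 1.28 to 0.66 (adjusted p = 0.169), and Col5a3 was the only fibrillar chain still called. The NZO mean of the fibrillar sum was 47.6 TPM without it. Over all genes the share called in NZO went from 34.2% to 23.7% without replicate 4. In 129, 7 of the 28 called genes were lost without the sex-discordant libraries, among them Col1a2 (log2 fold change -0.83, then -0.76, adjusted p = 0.0793), and 1 of 29 in NOD (Col12a1) and 7 of 21 in WSB, among them Col5a1 and Col15a1. Over all genes the share called without them went from 48.8% to 20.9% in 129, from 65.3% to 55.2% in NOD and from 56.2% to 48.8% in WSB.

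In bulk islets, fewer cells of a type and less RNA per cell cannot be told apart. The 4 fibroblast markers Pdgfra, Pdgfrb, Dcn and Lum moved with the fibrillar chains in NOD, 129 and B6, and only in part elsewhere. They summed to 14.1 to 152 TPM in NOD, 26.6 to 49.4 in NZO and 4.96 to 12.9 in B6. All 4 were called higher in NOD and lower in 129 and B6, and none was at 0 in all libraries of a strain. In NZO 3 were higher, and in CAST 2 were lower. In AJ 1 was higher and 1 lower, in PWK 1 was lower, and in WSB 2 were higher and 1 lower. The 8 leukocyte markers also moved in NOD, where they summed to 29.4 to 2679 TPM (median 418), against medians of 11.1 to 45.2 TPM in the other strains. All 7 of them that were tested were called higher in NOD. The 7 pericyte markers were all lower in 129 and B6 and all higher in NZO and WSB, and 3 were higher and 1 lower in NOD. They summed to 152 to 208 TPM in NZO and 18.8 to 67.7 TPM in B6. Of 6 Schwann cell markers, 6 were lower in B6, 5 in 129 and 2 in NOD, and 4 were higher in NZO and 2 in NOD. Of 6 ductal markers, 5 were lower in 129, and 4 were higher in NOD and 5 in NZO. In NOD all 10 acinar markers were higher and 5 of 7 beta cell markers lower. Acinar markers were also higher in CAST (10), B6 (8) and PWK (1), and lower in AJ (10) and 129 (9). The part of these cells in the collagen levels was not tested.

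The basement membrane chains varied less. Their summed level went from 80.01 TPM ± 14.9 in B6 (SD, n = 18) over 93.9 ± 7.25 in 129, 100.4 ± 22.97 in CAST, 132 ± 18.3 in AJ, 136 ± 18.8 in NZO, 138 ± 24.6 in WSB and 147 ± 41.4 in PWK (n = 5) to 151 ± 67.6 in NOD (n = 10). The upper 5 strains overlapped throughout. Of the 8 endothelial markers, 6 were called lower in B6 and 6 in CAST, and 7 were higher in WSB and 6 in NZO, while in NOD 5 were lower and 2 higher. Their part in these levels was not tested. Col4a1 and Col4a2 together made up 85.8% ± 4.47 of the sum over the 91 libraries. Col4a1 had the second narrowest strain difference of the 37 genes, 0.93 on the log2 scale between the fitted levels of WSB and B6. By mean TPM it ran from 54.7 ± 11.2 in B6 to 94.7 ± 30.9 in PWK.

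The 2 head-to-head chains did not keep a fixed ratio. Col4a2 stood to Col4a1 as 0.258 ± 0.044 (SD, n = 14) in CAST and 0.282 ± 0.028 (n = 18) in B6, and as 0.452 ± 0.084 (n = 14) in AJ and 0.467 ± 0.037 (n = 4) in NZO. The highest ratio in CAST was 0.347 and in B6 0.336, and the lowest in AJ was 0.357 and in NZO 0.413, so these pairs of strains did not overlap. In CAST, Col4a1 was called higher than in the other strains by 0.18 and Col4a2 lower by a log2 fold change of -0.32. The gene models overlap on opposite strands, and whether the counting used strand is not given in the sources used here, so reads from the shared bases cannot be assigned.

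Among the remaining basement membrane chains, Col18a1, the source of the fragment endostatin, went with the fibrillar chains. It had 6.96, 5.40, 8.71 and 14.3 TPM in the NZO libraries and 0.52 to 1.63 TPM in B6, with no overlap. It was higher in NZO by 2.40 ± 0.17 (SE, adjusted p = 5.93e-21) and in NOD by 1.93, and lower in 129 and B6 by a log2 fold change of -1.71 and -1.14. Without NZO replicate 4 it was still higher there, by 1.96. Col18a1 overlaps Slc19a1 on the other strand. Col15a1 was lowest in CAST at 5.21 TPM ± 1.69 (SD, n = 14), with a log2 fold change of -1.30. Col4a3, a chain of the network known from kidney and lung, was lower in NOD by a log2 fold change of -1.18 and higher in 129 by 0.75. Col4a5 was highest in NZO at 1.13, 0.80, 0.81 and 2.76 TPM, by 1.64 with replicate 4 and 1.02 without it, and lowest in PWK. Col4a4 was higher in PWK by 0.72 and lower in NOD by a log2 fold change of -0.76. Col4a6, which lies next to Col4a5 on the X chromosome, was close to the limit of detection. It was at 0 in 8 of the 14 AJ libraries and reached 0.02 TPM there, and was lower in AJ by a log2 fold change of -3.80.

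The ratio of fibrillar to basement membrane TPM was 0.606 ± 0.280 in NOD (SD, n = 10) and 0.503 ± 0.274 in NZO (n = 4), and 0.335 ± 0.099 in AJ (n = 14). It lay between 0.174 and 0.247 in the means of B6, 129, CAST, PWK and WSB. A wider set of fibrillar chains, given with the alternatives below, raised the ratio in several strains and turned the order of NOD and NZO. NOD ran from 0.227 over 0.610 to 0.969, and only its lowest libraries overlapped B6, which ran from 0.088 to 0.327. The NZO libraries had 0.328, 0.336, 0.442 and 0.906, and without replicate 4 their mean was 0.369.

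**Figure D3:**
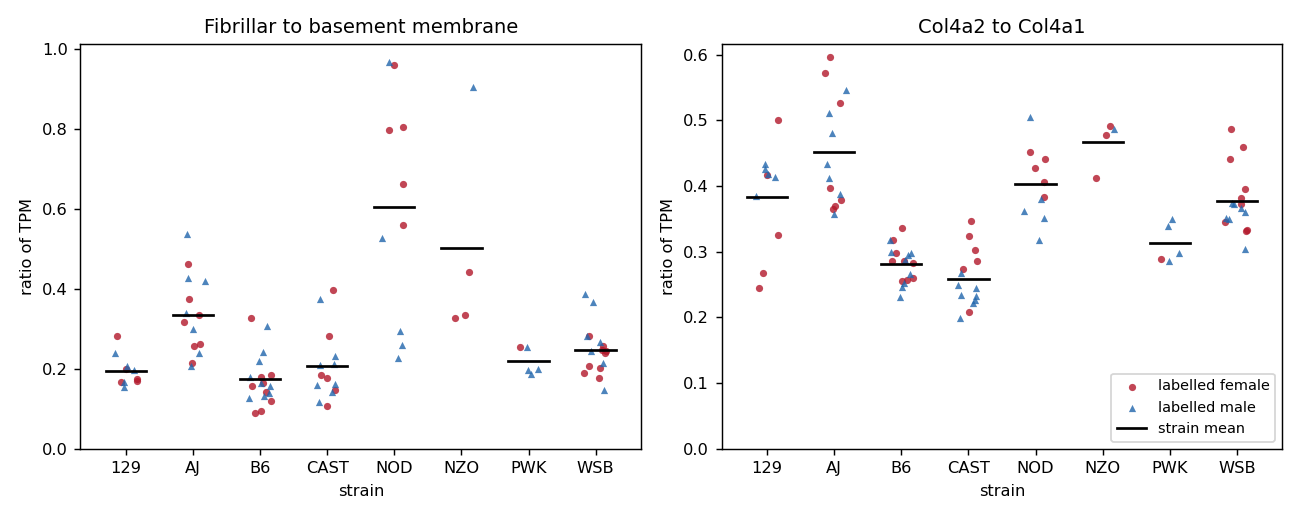
Ratio of summed fibrillar to summed basement membrane TPM (left) and of Col4a2 to Col4a1 TPM (right) in each library by strain, with strain means as black bars. On the left NOD reaches 0.969 and B6 stays at or under 0.327, and on the right the B6 and CAST libraries stay at or under 0.347.

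Several other collagen genes had strain patterns of their own. Col6a6, a chain of type VI collagen, split the strains into a high and a low set with no overlap. It had means of 13.7 TPM in B6, 7.83 in CAST, 15.5 in NZO and 14.6 in PWK, with a lowest library of 3.43 TPM in CAST. In the other 4 strains the means were 0.324 TPM in 129, 0.554 in AJ, 0.704 in NOD and 0.688 in WSB, with a highest library of 1.28 TPM in NOD. The high and the low set each hold 2 strains of either number range. Its strain effect had an adjusted p of 8.05e-64, and it was higher in B6 by 2.86 and lower in 129 by a log2 fold change of -3.62.

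Col6a1, Col6a2 and Col6a3 were higher in NOD by 1.58, 1.52 and 1.88 and in NZO by 1.53, 1.41 and 1.11, and lower in B6 by log2 fold changes of -1.18, -1.21 and -0.52. By mean TPM Col6a1 was lowest in B6, whereas Col6a3 was lowest in 129, with 1.17 TPM against 3.42 in B6. The B6 mean TPM of Col6a3 was also above those of CAST, PWK and WSB. Its lower value in B6 thus holds for counts, and TPM did not follow it. The NZO call of Col6a3 was lost without replicate 4 (0.68, adjusted p = 0.0515).

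For 3 genes, all libraries of 1 strain lay above those of all others in normalized counts, against 4.6% of all genes tested with 1 strain wholly above or below. Col8a2, a short-chain collagen of the corneal endothelial layer, ran in WSB from 2.40 over 4.50 to 5.29 TPM, and its highest library elsewhere had 1.78 TPM, in B6. It was higher in WSB by 4.45 ± 0.15 (SE, adjusted p = 3.29e-44) and lower in CAST by a log2 fold change of -3.05. Col14a1, a collagen that binds the surface of fibrils, had 32.2, 28.98, 31.7, 23.6 and 13.6 TPM in PWK, against a highest library of 13.2 TPM elsewhere, and was higher in PWK by 3.00. It was lower in 129 and B6 by log2 fold changes of -1.95 and -1.96. Col9a2 ran in AJ from 4.52 to 7.51 TPM and was higher there by 1.46, with a highest TPM elsewhere of 4.49 in WSB.

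Col27a1, a fibril-forming collagen best known from cartilage, was high in AJ and NZO. It ran in AJ from 27.03 over 41.5 to 48.3 TPM and had 38.9, 22.5, 28.4 and 36.1 TPM in NZO, while the highest library of the other 6 strains had 21.95 TPM. It was lowest in WSB at 3.18 TPM ± 0.827 (SD, n = 16), with a log2 fold change of -1.92. Col20a1 was highest in 129 at 8.60 TPM ± 1.36 (SD, n = 10), by 1.48, and Col12a1, another fibril-surface collagen, was highest in PWK, at 2.51, 2.63, 2.10, 2.78 and 0.80 TPM, by 2.86, and lower in 129 by a log2 fold change of -2.14. Col6a5 was near 0 in B6, at 0 to 0.12 TPM, with a log2 fold change of -3.37, and Col23a1 was higher in NOD by 2.66. Col9a3, which overlaps Tcfl5 on the other strand, was higher in NZO by 2.14, where its libraries had 1.04, 0.47, 0.89 and 4.84 TPM, and by 1.19 without replicate 4. Of the genes that were not tested, Col6a4 reached 14.1 TPM and Col17a1, a transmembrane collagen of epithelia, 7.79 TPM in NOD.

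**Figure D4:**
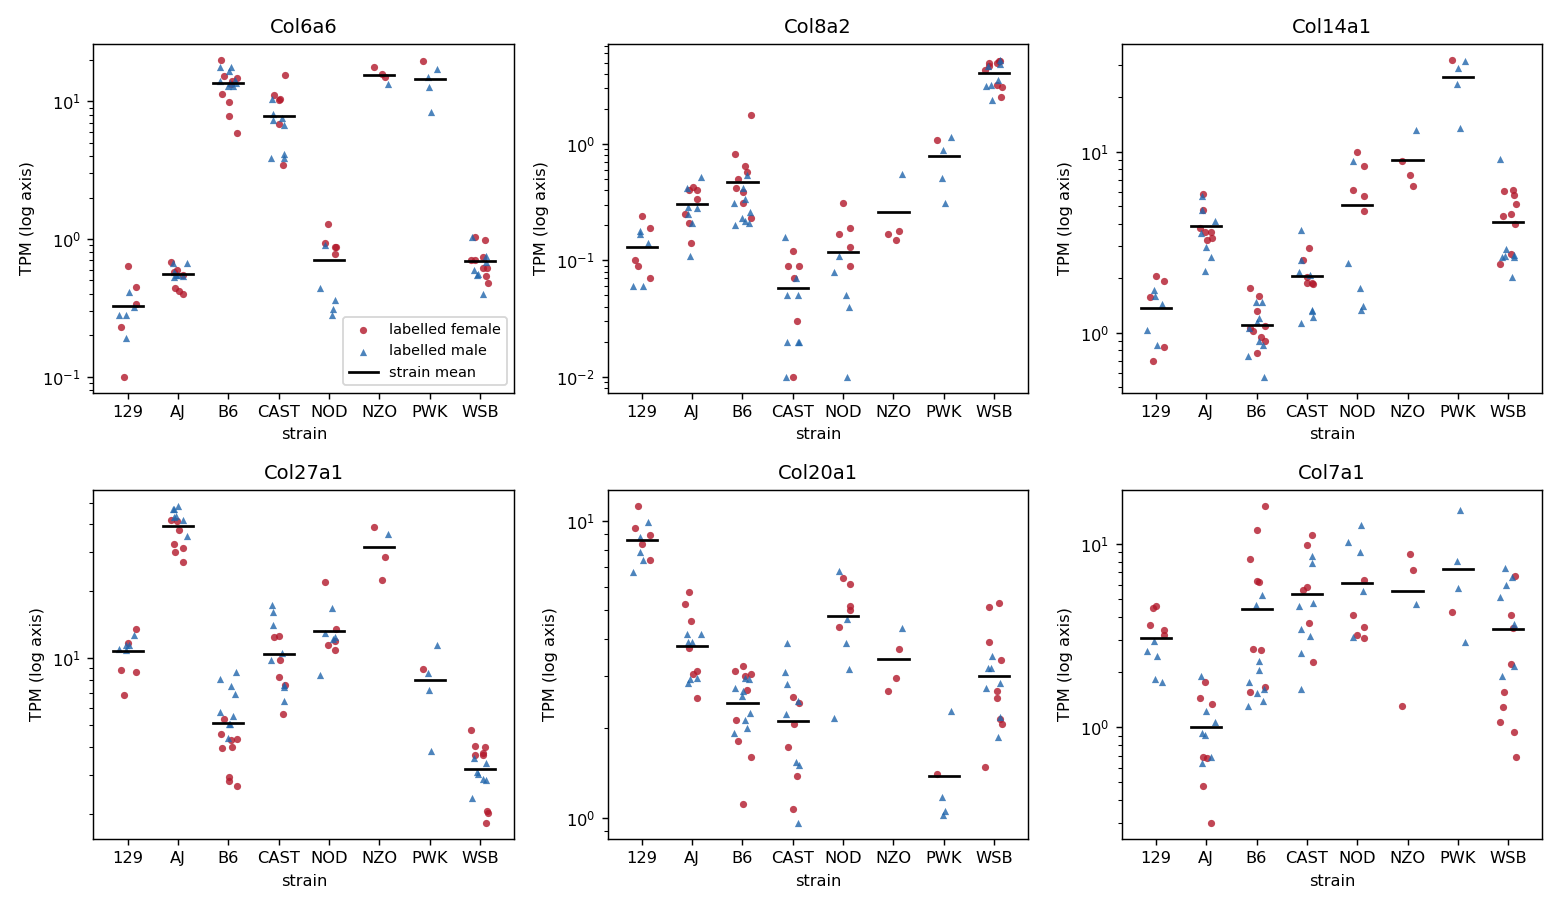
TPM of Col6a6, Col8a2, Col14a1, Col27a1, Col20a1 and Col7a1 in each library by strain on log axes, with strain means as black bars. Col6a6 separates B6, CAST, NZO and PWK (3.43 TPM or more) from the other strains (1.28 TPM or less), Col8a2 stands out in WSB and Col14a1 in PWK, and Col7a1 is lowest in AJ.

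Col7a1, which forms the anchoring fibrils under epithelia, moved with the acinar markers. It had 1.00 TPM ± 0.475 in AJ (SD, n = 14) and 7.26 ± 4.91 in PWK (n = 5), and was lower in AJ by a log2 fold change of -2.72. The 10 acinar markers were all called lower in AJ, where they summed to 1951 to 25345 TPM, against 53909 to 318627 in PWK. With the acinar level as a covariate, the value of Col7a1 in AJ turned to 0.28 (adjusted p = 0.262), and its calls in 129, CAST and NOD were lost as well, while WSB, not called before, came to -0.58 (adjusted p = 0.000232). The values of Col27a1 in AJ and WSB were 1.76 and -1.90 in that fit.

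Genes that make and handle collagen were taken from lists. Their NZO counts, here and in the next paragraph, include replicate 4, and counts without it are not given. Of 13 partners of fibrils, 12 were called higher in NOD (35.8% of all genes) and 11 in NZO (20%), and 12 were lower in B6 (27.5%), 11 in CAST (31%) and 10 in 129 (21%). Among them, the proteoglycan Bgn went from 10.1 TPM ± 2.98 in B6 (SD, n = 18) to 123 ± 101 in NOD (n = 10), Dcn, which is also among the fibroblast markers, from 4.34 ± 1.83 to 51.7 ± 42.04, and fibronectin (Fn1) from 0.968 ± 0.482 in B6 to 11.5 ± 2.70 in NZO (n = 4). The 14 tested basement membrane partners had 11 higher in NZO (20%) and in WSB (26.5%, with 1 lower), 11 lower and 1 higher in B6 and in CAST, and 4 higher and 4 lower in NOD. The perlecan gene Hspg2 had a mean of 15.2 TPM and laminin Lamc1 14.8 TPM, while Lama3 was highest in WSB, by 1.32.

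Of the 20 genes for collagen folding and modification, 8 were higher and 6 lower in NOD, shares close to those of all genes (35.8% and 29.5%), and 13 were lower and 2 higher in B6 (27.5% and 25.6%). P4hb, a subunit of prolyl hydroxylase that is also a general folding enzyme, had 494 TPM ± 52.5 and was not called for strain (adjusted p = 0.278). Mia3, which helps to export procollagen, had 219 TPM and was higher in AJ by 0.32. P3h2 was highest in NZO, by 1.33, and Plod1, a lysyl hydroxylase, in WSB, by 0.73. Of 11 tested genes for processing and crosslinking, 8 were higher and 3 lower in NOD, and 9 higher and 0 lower in NZO, where 20% and 14.2% of all genes were called. The procollagen protease Bmp1 (31.99 TPM) went the other way and was lower in NOD by a log2 fold change of -0.60, and the crosslinker Loxl2 was higher in B6 by 0.68. Of 13 tested genes for degradation, 9 were higher and 2 lower in NOD (35.8% and 29.5% of all genes), and 10 higher and 1 lower in NZO. The protease Mmp14 was higher in NOD by 2.80 and Timp2 by 1.10, whereas the inhibitor Timp3 (47.4 TPM) was lowest in NOD at 28.5 TPM ± 8.78. Of 9 tested receptors, 6 were higher and 3 lower in NOD, the higher ones including Ddr2 by 1.83 and the leukocyte receptor Lair1 by 2.67. Adgrg1 and Itgb1, the most abundant at 97.5 and 54.3 TPM, had their highest mean TPM in PWK and in 129, neither of which was called, and were called higher in WSB by 0.37 (Adgrg1) and in NZO and NOD by 0.18 each (Itgb1). Adgrg1 was called lower in NOD, by a log2 fold change of -0.67.

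Within strains, Col1a1 was compared from library to library with other collagen genes. Over 24 relations on log2(TPM + 1) in the 6 strains with at least 10 libraries, Col1a1 and Col1a2 had Pearson's r of 0.811 to 0.992 and Spearman's rho of 0.661 to 0.996. All 6 values of r had an adjusted permutation p under 0.05 (100000 permutations, two-sided), the largest being 0.0069, and 5 of 6 passed by rho, all but 129 (adjusted permutation p = 0.0668), and r was 0.772 or more without the 2 libraries farthest from the median. Col1a1 and Col3a1 had r of 0.709 to 0.990 and rho of 0.564 to 0.952, also with 6 of 6 passing by r and 5 by rho, but r fell to 0.359 in 129 and 0.391 in CAST without the 2 farthest libraries, so there the relation rests on those libraries. Raw permutation p-values were 1.0e-05, the smallest that the permutations can give, for Col1a1 and Col1a2 in AJ, B6, CAST, NOD and WSB.

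Col4a1 and Col4a2 passed this test in 4 of 6 strains. Their r was 0.989 in NOD, 0.900 in B6, 0.808 in WSB and 0.747 in CAST, with rho of 0.915, 0.833, 0.700 and 0.820. In AJ it was 0.384 (rho 0.218, adjusted permutation p = 0.192) and in 129 -0.378 (rho -0.401, adjusted permutation p = 0.293). Without the 2 farthest libraries these became -0.097 and 0.385, and the 4 values that passed were 0.600 to 0.992. Col1a1 and Col4a1 had r of 0.950 in NOD (rho 0.879, adjusted permutation p = 0.00041), which was 0.952 without the 2 farthest libraries. In the other 5 strains r was 0.126 to 0.672. The values in 129 and AJ passed by r but not by rho, and dropped to 0.229 and -0.167 without the 2 farthest libraries. Whether the relations differ between strains was not tested. TPM was not corrected for acinar content here, and its part in the relations was not tested.

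**Figure D5:**
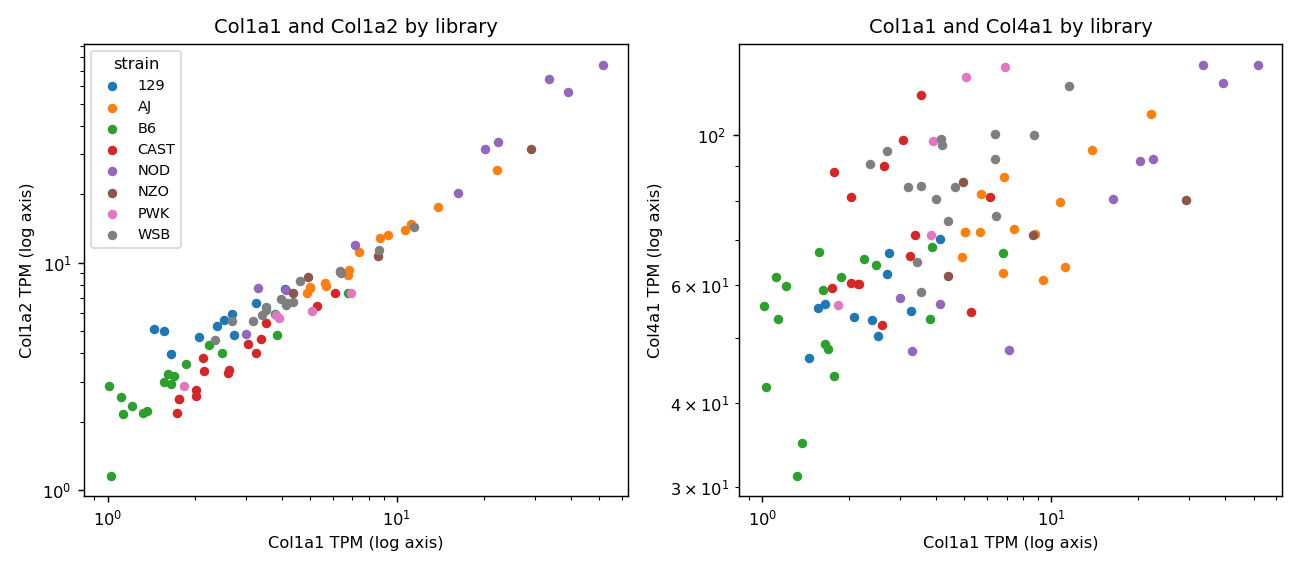
Col1a1 TPM against Col1a2 TPM (left) and against Col4a1 TPM (right) in each of the 91 libraries, coloured by strain, on log axes. On the left Col1a1 rises with Col1a2, with the 129 libraries at a lower Col1a1 to Col1a2 ratio (0.283 to 0.570) than those of AJ (0.645 to 0.869), and on the right the NOD libraries rise together whereas those of other strains spread over Col4a1 levels of 31.2 to 126 TPM.

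Another 18 relations were chosen after the data were seen. Col1a1 went with Dcn in all 6 strains by r, from 0.595 in B6 to 0.968 in NOD (rho 0.600 to 0.988, and 5 of 6 by rho). With the leukocyte gene Ptprc, Col1a1 had r of 0.975 in NOD (rho 0.964, adjusted permutation p = 9.0e-05) and of -0.123 to 0.557 in the other strains, where no value of r passed and rho passed in WSB (0.604). Without the 2 farthest libraries r was 0.973 in NOD and 0.331 to 0.693 in the other strains. Col4a1 and the endothelial gene Pecam1 had r of 0.950 in B6, 0.965 in NOD, 0.681 in CAST and 0.668 in WSB, and of 0.038 in AJ and 0.080 in 129. Without the 2 farthest libraries it was 0.530 to 0.981 in the first 4 of these strains, and -0.325 and -0.075 in AJ and 129. For Dcn it was then 0.425 to 0.969. The acinar sums ran from 7443 to 360814 TPM in B6, 15823 to 268220 in CAST, 30315 to 329423 in NOD and 9639 to 223053 in WSB. In AJ they ran from 1951 to 25345 TPM and in 129 from 7535 to 64517 TPM. TPM was not corrected for this content in any relation, and its part was not tested.

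A sex effect by the labels was called for 1 of 37 genes, Col27a1, which was lower in females by a log2 fold change of -0.25 ± 0.07 (SE, adjusted p = 0.032), against 4% of all genes. In B6 it had 3.88 TPM ± 0.901 in females and 6.31 ± 1.4995 in males (SD, n = 9 each), and in AJ 34.5 ± 5.76 and 43.6 ± 4.36 (n = 7 each), while in WSB the means were 3.31 and 3.02, and 3.04 and 3.19 without its sex-discordant libraries. Without the 12 sex-discordant libraries, 7 genes were called (background 9.82%). Col14a1, Col8a2, Col6a3, Col15a1 and Col6a6 were then higher in females by 0.42, 0.47, 0.38, 0.27 and 0.20, and Col27a1 and Col13a1 lower by log2 fold changes of -0.31 and -0.23.

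The sex difference varied between strains for 1 of 37 genes, Col7a1 (adjusted p of the interaction = 0.00039, over 82 libraries of 6 strains), against 5.9% of all genes. Col7a1 was at 6.37 TPM ± 5.03 in B6 females and 2.43 ± 1.47 in B6 males (SD, n = 9 each), and at 2.45 ± 1.99 in WSB females (n = 9) and 4.67 ± 2.16 in WSB males (n = 7). The acinar sums moved the same way, with medians of 152581 TPM in B6 females and 17144 in B6 males, and of 39763 and 138523 in WSB. With the acinar covariate the interaction of Col7a1 had an adjusted p of 0.723, and 0.434% of all genes had a called interaction. Without the sex-discordant libraries 8 genes had an interaction (background 17.6%): Col7a1, Col6a6, Col6a1, Col6a2, Col15a1, Col14a1, Col1a2 and Col13a1.

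In NOD the fibrillar sum split by sex label only once the discordant libraries were set aside. The 4 remaining female libraries had 77.2 to 214 TPM and the 4 remaining male libraries 19.8 to 41.9 TPM, with no overlap. Of the 2 discordant libraries, the one labelled female and male by Xist and Y-linked genes had 188 TPM. The one labelled male and female by these genes had 240 TPM. With both included, neither the label nor the sex by these genes separated the sums. The leukocyte markers summed to 269 to 1620 TPM in the remaining females and 29.4 to 194 TPM in the remaining males. In the discordant libraries they summed to 1541 and 2679 TPM, in the same order. The acinar markers ran the other way, with medians of 67071 TPM in the females and 270546 TPM in the males. The difference within NOD was not tested by itself.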

How the data were processed

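RNA-seq of islets was read from 91 library tables. Per the labels and the study's methods, the authors quantified genes with RSEM on mm10 and GENCODE M18, and deposited the expected count and the TPM of each gene. The version, the strand setting and the read filters are not given in the sources used here. Whether the reads of the other strains aligned as well as those of B6 to the reference was not tested. Gene types and positions came from GENCODE M21 on GRCm38, which matched 54079 of 54146 genes.

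Expected counts were rounded and given to edgeR (4.0.16, run under R 4.3.3) for its quasi-likelihood test, normalized by upper quartile, with strain and labelled sex as terms. The gene filter took the steps that the study names, which do not state the scale of the variance and need not leave the study's own gene set: only protein-coding genes of the autosomes (1 to 19) and X, without the 10% of lowest variance, and with counts in at least 85% of libraries, which left 15191. Benjamini-Hochberg adjustment ran over all of these, and 0.05 was the threshold. The interaction was fitted over 82 libraries of 6 strains. Strain and sex came from the labels, and library numbers within strains are only names. TPM values were not tested, except in the permutation correlations on log2(TPM + 1). Counting error alone limits the shallowest library to 0.177 CPM at 3 counts. Tests were checked on simulated data.

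The collagen genes, the partner lists and the tests were chosen with earlier results of these data known. Named were the fibrillar and basement membrane chains, the 3 called genes with the largest change in each strain, genes with a sex effect or interaction, genes at 5 TPM or more, and for each partner list the 2 most abundant and the 2 with the smallest strain p. Of these, 1 gene is not reported here. Others were named after their values were seen. Alternatives were TMM and RLE normalization, filterByExpr, no filter, limma-voom 3.58.1, DESeq2 1.42.0, no sex covariate, sums per sample, an acinar covariate, fits without sex-discordant libraries and without each NZO or PWK library, comparison within number ranges, a minimum log2 change of 1, other TPM minimums, and other sets and units for the ratio.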

Additional observations from a re-analysis of the deposited data

Results flagged for a closer look

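Among 68 groups of 4 to 10 libraries examined for a single distant library, 6 had one. Chance alone gives one in about 1 in 20 groups where groups are independent. The groups here share libraries, so that rate is only a guide. Of the 6 distant libraries, 4 were the male NZO library, replicate 4, the same library with intermediate Xist. It had 31.65 TPM of Col1a2 (next highest 10.66), 5.89 TPM of Col5a2 (2.24), 2.76 TPM of Col4a5 (1.13) and 19.46 TPM of Col15a1 (14.68). In 129, replicate 8 had 2.16 TPM of Col4a3 (next highest 1.20) and replicate 5 had 0.10 TPM of Col4a6 (0.05), and both are sex-discordant.

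The sex difference of Col7a1 differed between strains, with an adjusted p of 0.000394 in edgeR's test of the interaction. It was not called with the acinar covariate (adjusted p = 0.723) or with limma-voom.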

How the results depend on the processing

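No paired analysis was possible because the labels give the groups no shared replicate numbers. The 37 calls for strain became 36 within 129, NOD, NZO and PWK (81.6% of all genes, against 97.4% over all strains), and 35 (86.6%) within the other strains with the number range as a covariate. A log2 fold change of at least 1 left 5 genes in AJ (8.2% of all genes), 15 in B6 (7.55%), 5 in CAST (9.39%), 18 in NOD (16%), 8 in PWK (11.4%), 5 in WSB (7.06%) and 0 for sex (0.0724%). Sums per sample left 11 in AJ (30.5% of all genes), 13 in CAST (35.7%), 9 in WSB (30.3%) and, by edgeR, 0 for sex (2 at an unadjusted p under 0.05). The sex effect was called for 7 genes without sex-discordant libraries (9.82%). The interaction was called for 2 genes with filterByExpr (5.45% of all genes) and without a filter (5.01%), 3 with DESeq2 (7.71%), 8 without sex-discordant libraries (17.6%), and 0 with limma-voom (2.8%, with 5 collagen genes at an unadjusted p under 0.05) and with the acinar covariate in edgeR (0.434%, with 4). Of 601 alternative values of 50 fold changes, 584 kept direction and call, 7 lost and 7 gained the call, and 3 turned. These were Col7a1 in AJ with the acinar covariate (0.28), and Col15a1 in NZO without replicate 4 (-0.0052, and 0.306 at most without another NZO library) and within the number range (-0.15). The main fit gave 0.22 for Col15a1 in NZO, which was not called either. The wider fibrillar set, which adds Col2a1, Col11a1, Col11a2, Col24a1 and Col27a1, raised the ratio to 0.388 in 129, 0.689 in AJ, 0.294 in B6, 0.339 in CAST and 0.310 in PWK, and gave 0.767 in NZO and 0.746 in NOD, in the opposite order to the reported 0.503 and 0.606, and Col4a1 to Col4a6 alone gave 0.259 in PWK. At 5 TPM 11 genes counted as expressed. The causes of these changes were not tested, except where fewer samples or genes entered by construction.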
